A study of Mus musculus with 6 samples.

Results

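The genes described here encode the machinery that folds proteins in the endoplasmic reticulum (ER), removes those that fail to fold, and reports the load of unfolded protein to the nucleus. They are 34 genes taken by name, each read through every probe set that the platform's annotation pairs with it, and all 34 were measured. They make up 34 of the 18193 genes and 79 of the 45037 probe sets on the array. Liver RNA came from untreated female mice aged 8 weeks, 3 of the inbred strain SM/J (SM) and 3 of the inbred strain NZB/BinJ (NZB), with 1 array per mouse. All 6 mice were weaned at 3 weeks and fed chow, and they were perfused with 50 mL of phosphate-buffered saline after a fast of 4 hours. No mouse was given an agent that stresses the ER, so the comparison asks how the strains differ in their native state.

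Liver cells make most plasma proteins, and these enter the ER unfolded. Chaperones such as BiP, encoded by Hspa5, hold them, lectin chaperones and disulfide isomerases help them fold, and proteins that stay unfolded are passed back through the membrane for degradation. The membrane sensors IRE1 (Ern1), ATF6 and PERK (Eif2ak3) respond to unfolded protein: IRE1 splices the Xbp1 mRNA, ATF6 is cut to release a transcription factor, and PERK phosphorylates the translation factor eIF2 alpha, which favours translation of Atf4.

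The response acts through short promoter elements, which are shown because the response is known by them. The members include genes known as targets of ATF6, XBP1 and ATF4, so their share with an element was in part fixed by the choice of genes, and the shares below are a description. The ER stress element (ERSE), bound by NF-Y together with ATF6 or XBP1, was searched as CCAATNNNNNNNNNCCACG on both strands. The windows searched were RefSeq promoters of the mouse assembly GRCm38.p6, from 250 bases before a gene's start to 50 bases after it, and 29 of the 34 members had one. The element was present in 9 of the 29, or 31.0%, and in 39 of all 32851 windows, or 0.119%. In the lines that follow, capitals mark its CCAAT and CCACG parts, with 10 bases on each side, read 5′ to 3′ on the strand that carries the element.
Hspa5, chr2:34772015-34772053, + strand: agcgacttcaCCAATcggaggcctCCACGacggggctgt
Hsp90b1, chr10:86705628-86705666, - strand: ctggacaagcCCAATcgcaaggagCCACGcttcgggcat
Hsp90b1, chr10:86705523-86705561, + strand: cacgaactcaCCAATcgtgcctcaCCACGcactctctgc
Calr, chr8:84847065-84847103, + strand: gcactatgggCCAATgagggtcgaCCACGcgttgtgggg
Canx, chr11:50325790-50325828, - strand: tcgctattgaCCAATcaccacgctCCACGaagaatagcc
Pdia6, chr12:17266481-17266519, + strand: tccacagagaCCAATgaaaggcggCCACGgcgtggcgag
Dnajc3, chr14:118937817-118937855, + strand: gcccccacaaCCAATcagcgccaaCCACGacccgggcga
Creld2, chr15:88819510-88819548, - strand: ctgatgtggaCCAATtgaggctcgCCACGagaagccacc
Syvn1, chr19:6046522-6046560, + strand: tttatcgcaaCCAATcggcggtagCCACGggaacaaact
Derl3, chr10:75893232-75893270, - strand: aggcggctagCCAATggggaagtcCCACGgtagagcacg

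A shorter form, ERSE-II, searched as ATTGGNCCACG on both strands, was present in 2 members and in 0.0365% of all windows. It shares the letters CCACG with the longer form, and no member held both.
Herpud1, chr8:94386367-94386397, + strand: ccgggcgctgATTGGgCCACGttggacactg
Dnajb11, chr16:22857842-22857872, + strand: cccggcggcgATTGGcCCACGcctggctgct

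The C/EBP-ATF response element, which ATF4 binds, was searched as TGATGNAA on both strands. It was present in 4 of the 29 members, or 13.8%, and in 3.97% of all windows.
Herpud1, chr8:94386307-94386334, - strand: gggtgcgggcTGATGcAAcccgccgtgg
Asns, chr6:7693215-7693242, - strand: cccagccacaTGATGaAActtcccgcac
Chac1, chr2:119351039-119351066, - strand: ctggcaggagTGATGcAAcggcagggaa
Trib3, chr2:152344029-152344056, + strand: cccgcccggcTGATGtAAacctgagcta

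Herpud1 was the only member whose window held both an ERSE-II and a C/EBP-ATF element. Its whole window, chr8:94386179-94386478 on the + strand, is printed because Herpud1 had the largest gene-level difference between the strains. Capitals mark both elements, of which the C/EBP-ATF element lies on the opposite strand and so appears as its reverse complement.
Herpud1: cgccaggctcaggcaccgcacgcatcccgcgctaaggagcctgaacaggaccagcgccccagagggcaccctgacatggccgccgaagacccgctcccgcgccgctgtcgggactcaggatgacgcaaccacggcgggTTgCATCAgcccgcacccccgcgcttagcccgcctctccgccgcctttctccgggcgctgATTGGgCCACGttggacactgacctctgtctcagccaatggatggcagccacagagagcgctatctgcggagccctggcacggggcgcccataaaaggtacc

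The XBP1 element searched as TGACGTGG, which holds the reverse complement of CCACG, was in no member's window and in 0.676% of all windows. Sdf2l1, the member with the largest difference upwards, matched none of the elements searched. These sequences belong to the reference strain C57BL/6J, and the alleles of SM and NZB were not read. A match describes the letters present, not binding. The ERSE was present in 4 of 7 members called higher in NZB, in 1 of 3 called lower and in 4 of 19 that were not called, counting members with a window. Dnajc3 is the lower gene, and its probe sets were called in both directions. Pdia6 and Derl3, counted as higher, each lost the call under an alternative given further on. A link between the element and the direction was not tested.

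Each array gave a log2 expression value per probe set, with an array median between 6.60 and 6.66. A gene was read from the probe set with the highest mean over the 6 arrays. SM replicate 2 read 7.32 for Xist, the RNA of the inactive X chromosome, against 12.6 to 12.9 on the other 5 arrays. Probe sets of the Y-linked genes Ddx3y, Eif2s3y, Kdm5d and Uty read at most 5.67 on any array, which serves as a background level, and at most 5.4 on SM replicate 2. The label of SM replicate 2 gives a female, and its Xist reading goes against that label, whereas its highest Y-linked reading was no higher than those of the other arrays. Main counts below are therefore also given without SM replicate 2. As a check of the tissue, 6 hepatocyte markers were read. The secreted protein genes Alb, Ttr, Apoa1 and Apob read between 13.86 and 14.90 on every array, with strain differences of 0.02, 0.061, 0.018 and 0.0014, none called. The urea cycle gene Cps1 read 14.01, 13.97 and 13.95 in SM and 13.86, 13.89 and 13.81 in NZB, without overlap, and was not called (-0.12, SE 0.059, adjusted p = 0.179). Hnf4a, the hepatocyte nuclear factor, read 12.31, 12.34 and 12.43 in SM and 12.02, 11.81 and 12.11 in NZB and was lower in NZB (-0.38, SE 0.084, adjusted p = 0.0113). With 3 arrays per strain, precision is limited by their number.

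Differences are NZB minus SM in log2 expression with the standard error (SE) of the limma model. A gene was called where its Benjamini-Hochberg adjusted p over all 18193 genes was under 0.05. By this rule 7 of the 34 members were higher in NZB (20.6%) and 4 were lower (11.8%), while 23 were not called. Over all genes tested, 8.47% were higher, 12.6% were lower and 21.0% were called either way, against 32.4% of the members. Bright genes were called more often. Of the 6977 genes with a mean above 8.04, the highest reading over the Y-linked genes with the germ-line ones added, 34.6% were called (9.83% higher, 24.7% lower). Of the 32 members above that level, 31.2% were called, with 18.8% higher and 12.5% lower. The share of members called was thus near that of all genes above the same level, and the members do not stand out by it.

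The arrays of the strains did not overlap for 15 members (44.1%), against 39.4% of all genes. Above 8.04 the order was the other way, with 40.6% of the members and 53.2% of all genes not overlapping. The median difference was 0.021 over the members and 0.021 over all genes. Above 8.04 it was 0.019 over the members and -0.08 over all genes. The members' median was 0.099 without SM replicate 1, 0.087 without NZB replicate 3, 0.097 after quantile normalization and -0.011 with array medians aligned, so its sign depended on the scaling. Without SM replicate 2, 6 members were higher and 4 were lower, the one lost being Derl3, and no other role group changed its counts. Over all 18193 genes, 873 were then higher and 1498 lower, against 1541 and 2286 with all 6 arrays. The arrays then did not overlap for 20 members (58.8%), against 45.5% of all genes. Shares above 8.04 were not computed for this setting, and with fewer arrays a lack of overlap is easier to reach. Of all genes called, 40.3% were higher as deposited, 30.3% with array medians aligned and 47.5% after quantile normalization.

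**Figure D1:**
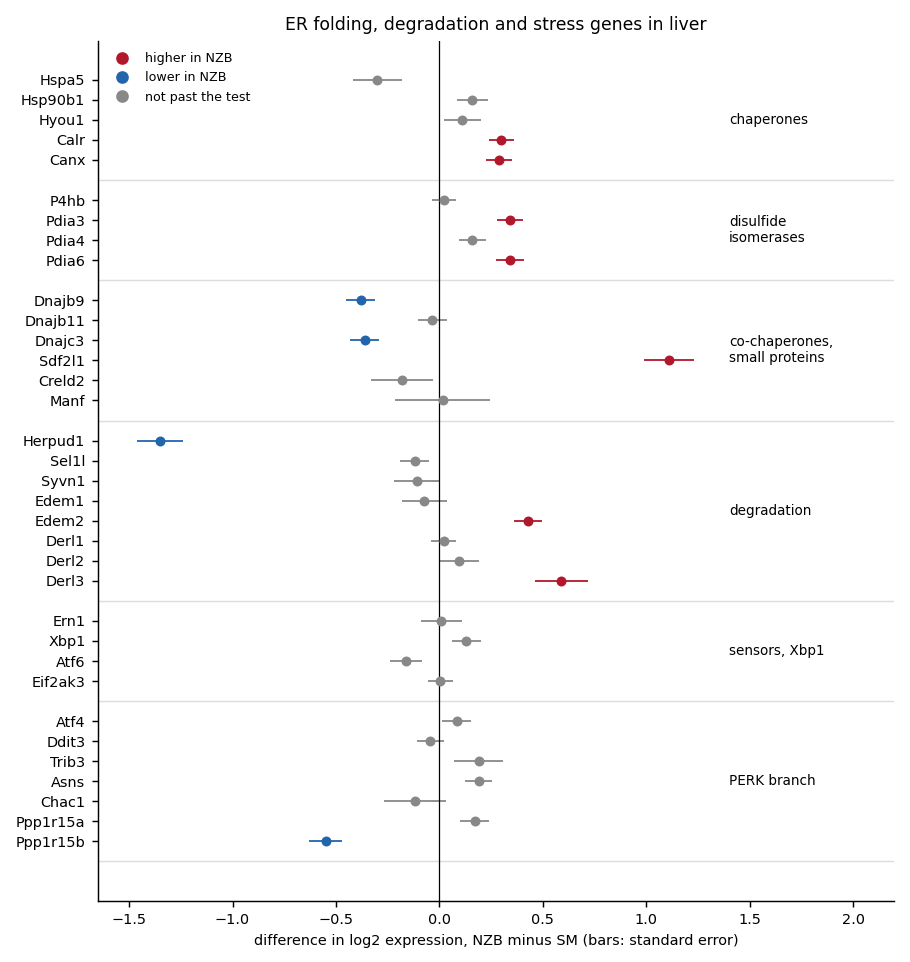
Difference in log2 expression (NZB minus SM, bars: standard error of the limma model, 3 mice per strain) for the 34 members, grouped by role and coloured by the result of the test. Herpud1 lies farthest to the left at -1.35 and Sdf2l1 farthest to the right at 1.11, and none of the 4 genes of the sensors and Xbp1 was called.

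Among the chaperones of the ER lumen and membrane, the lectin chaperones were higher in NZB, while BiP was not called. Calr encodes calreticulin, the soluble lectin chaperone of glycoproteins, and read 12.78, 12.72 and 12.72 in SM and 13.09, 13.00 and 13.04 in NZB. All NZB arrays were above all SM arrays, and the gene was 1.23-fold higher (0.30, SE 0.059, adjusted p = 0.00678). Canx encodes calnexin, its membrane-bound counterpart, and read 11.90, 11.89 and 11.77 in SM and 12.17, 12.11 and 12.15 in NZB. It was 1.22-fold higher (0.29, SE 0.063, adjusted p = 0.0109), again with no overlap. The other 2 probe sets of each gene were also higher, with differences of 0.26 and 0.30 for Calr and of 0.58 and 0.41 for Canx.

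Hspa5 read 12.50, 12.21 and 12.37 in SM and 11.94, 12.33 and 11.91 in NZB. NZB replicate 2 lay within the SM range, while the other 2 NZB arrays lay below it. The difference was -0.30 (SE 0.12, adjusted p = 0.109), and without NZB replicate 2 it was -0.43 and past the threshold (adjusted p = 0.0169). In the other 14 gene-level alternatives the adjusted p stayed above the threshold, at up to 0.429. The further Hspa5 probe sets went both ways and were not called. Probe set 1427464_s_at differed by -0.17 (adjusted p = 0.437 over all probe sets). Probe set 1447824_x_at differed by 0.13, without overlap between the strains (adjusted p = 0.205 over all probe sets). With the mean of the probe sets the difference was -0.11. Hsp90b1 encodes GRP94, the ER member of the HSP90 family, and read 11.86, 11.79 and 11.62 in SM and 11.99, 11.88 and 11.89 in NZB. These arrays did not overlap, yet the difference of 0.16 missed the threshold (SE 0.076, adjusted p = 0.164). A further Hsp90b1 probe set differed by 0.34 and passed it (SE 0.072, adjusted p = 0.0141 over all probe sets), as did the mean of both (0.25, adjusted p = 0.0125). Hyou1, a large HSP70-like exchange factor for BiP, differed by 0.11 (SE 0.089, adjusted p = 0.421).

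Of the disulfide isomerases, which form and rearrange disulfide bonds, 2 of 4 were higher and none lower. Pdia3, known as ERp57, works with calnexin and calreticulin on glycoproteins and read 11.78, 11.75 and 11.70 in SM and 12.15, 12.04 and 12.06 in NZB. With no overlap between the strains it was 1.26-fold higher (0.34, SE 0.062, adjusted p = 0.00466). Pdia6 read 11.08, 11.04 and 10.96 in SM and 11.44, 11.29 and 11.37 in NZB, also without overlap, and was 1.26-fold higher (0.34, SE 0.067, adjusted p = 0.00706). A further probe set of Pdia6 differed by -0.0096, and with the mean of both the call ended (0.16, adjusted p = 0.110). The further probe set of Pdia3 differed by 0.14 and was not called (adjusted p = 0.174 over all probe sets).

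Pdia4 did not overlap between the strains, but its difference of 0.16 missed the threshold (SE 0.064, adjusted p = 0.109). It passed after quantile normalization (0.21, adjusted p = 0.0447) and with the mean of its probe sets (0.20, adjusted p = 0.0200). P4hb, which encodes protein disulfide isomerase itself, had the smallest spread of the members and differed by 0.022 (SE 0.058, adjusted p = 0.830).

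The co-chaperones and small ER proteins differed in both directions. Sdf2l1, a partner of the BiP co-chaperone ERdj3, read 8.24, 7.87 and 7.86 in SM and 9.23, 8.90 and 9.16 in NZB. Every NZB array was above every SM array, and the gene was 2.16-fold higher (1.11, SE 0.12, adjusted p = 0.000280). Dnajb11, which encodes ERdj3, differed by -0.034 (SE 0.071, adjusted p = 0.774).

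Dnajb9 encodes ERdj4, a BiP co-chaperone that acts on IRE1 and on proteins bound for degradation. It read 10.95, 10.90 and 11.02 in SM and 10.69, 10.51 and 10.54 in NZB. Every NZB array was below every SM array, a 1.30-fold lower level (-0.38, SE 0.07, adjusted p = 0.00520). Dnajc3 encodes p58IPK, a BiP co-chaperone also known as an inhibitor of PERK, and read 10.74, 10.61 and 10.71 in SM and 10.40, 10.35 and 10.22 in NZB. The strains did not overlap, and it was 1.29-fold lower (-0.36, SE 0.07, adjusted p = 0.00602) in the probe set that represents it, but its probe sets were called in both directions, as described further on.

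Creld2 and Manf, which encode secretable ER proteins induced by stress, varied widely within the strains. Manf read 10.65, 9.92 and 9.91 in SM and 10.07, 10.63 and 9.83 in NZB. SM replicate 1 and NZB replicate 2 stood above the other arrays of their strains, and the strain difference was 0.017 (SE 0.23, adjusted p = 0.970). Creld2 read 9.31, 8.78 and 9.21 in SM and 8.76, 9.18 and 8.82 in NZB, with overlap, and differed by -0.18 (SE 0.15, adjusted p = 0.439).

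In ER-associated degradation, 2 of 8 members were higher and 1 was lower. Herpud1 encodes HERP, a membrane protein that helps assemble the degradation complex around the ubiquitin ligase HRD1, and read 12.29, 12.61 and 12.54 in SM and 11.28, 10.91 and 11.20 in NZB. All NZB arrays were below all SM arrays, and the gene was 2.55-fold lower (-1.35, SE 0.11, adjusted p = 6.88e-05). Its further probe set differed by -1.32 (SE 0.11).

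Edem2 encodes a protein of the mannose trimming that marks misfolded glycoproteins for removal. It read 9.41, 9.32 and 9.20 in SM and 9.74, 9.73 and 9.76 in NZB, without overlap, and was 1.35-fold higher (0.43, SE 0.068, adjusted p = 0.00224). Its further probe set read at most 5.11, under the background level, and was not called (0.17, adjusted p = 0.0989 over all probe sets). Derl3 encodes a derlin, a membrane protein of the route by which substrates leave the ER, and read 7.47, 7.29 and 7.43 in SM and 7.94, 7.71 and 8.30 in NZB. The strains did not overlap and NZB was 1.50-fold higher (0.59, SE 0.13, adjusted p = 0.0120), but the call ended without SM replicate 2 (0.53, adjusted p = 0.0544).

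Markers of B and plasma cells, cells that secrete antibody and are rich in ER, were higher in NZB for 6 of 11 measured genes and lower for none. Ighm, the IgM heavy chain, read 8.37, 8.49 and 8.24 in SM and 12.32, 12.49 and 13.32 in NZB and differed by 4.35 (SE 0.21). Jchain, the chain that joins IgM units, read 5.94, 6.30 and 6.03 in SM and 9.81, 10.09 and 11.22 in NZB and differed by 4.28 (SE 0.30). NZB replicate 3 was the highest NZB array for Ighm, Jchain and Derl3. Replicates 1 and 2 were not in the same order: replicate 2 was the higher for Ighm and Jchain, replicate 1 for Derl3. For Sdf2l1, NZB replicate 1 was the highest. The summed linear level of the 11 markers was 3883 to 4770 in SM and 9834 to 16606 in NZB, and Ighm and Jchain carried that difference: together they summed to 367 to 438 in SM and 6028 to 12595 in NZB, the other 9 markers to 3515 to 4377 and 3806 to 4188. Most of the sum of those 9 was Sdc1, at 2977 to 3853 in SM and 3218 to 3548 in NZB. The plasma cell gene Mzb1 differed by 0.29 (SE 0.083, adjusted p = 0.0368), whereas Sdc1 (0.035), Tnfrsf17 (0.20), Cd79a (0.18), Cd79b (0.12) and Prdm1 (0.081) were not called. Without SM replicate 2, 5 of the 11 were higher, and with array medians aligned 4 were. No marker of this list was at 0, but Tnfrsf17, Pou2af1, Cd79a and Irf4 read near or under the background level.

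Markers of Kupffer cells and macrophages were higher for 5 of 8 genes and lower for 1, with summed levels of 6140 to 6760 in SM and 8098 to 9455 in NZB. Cd5l (0.75), Adgre1 (0.65), Vsig4 (0.63), Csf1r (0.45) and Cd68 (0.28) were higher, and Marco (-0.66) was lower. Clec4f (0.033) and Timd4 (0.12) were not called. The 6 hepatocyte markers summed to 117441 to 118779 in SM and 115619 to 118831 in NZB, with Hnf4a alone called. Markers of T and NK cells were higher for 3 of 4 genes, but for 1 without SM replicate 2, with summed levels of 424 to 470 in SM and 500 to 533 in NZB. Of 3 neutrophil markers 2 were higher, S100a8 by 1.00 (SE 0.19) and S100a9 by 0.51 (SE 0.081), with sums of 293 to 328 and 397 to 526.

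Sinusoidal endothelial markers went both ways, with 2 of 6 higher (Stab2, 0.97, SE 0.14, and Pecam1, 0.34, SE 0.064) and 2 lower (Lyve1, -0.65, SE 0.081, and Clec4g, -0.34, SE 0.065). Their sums were 3985 to 4245 in SM and 4098 to 4511 in NZB. Of 3 erythroid markers, Alas2 alone was called, and it was lower (-1.09, SE 0.26). Hba-a1 (0.073) and Slc4a1 (0.10) went the other way and were not called. The sums were 501 to 829 in SM and 275 to 429 in NZB. They mostly follow Alas2, which read 7.48 to 9.54, against at most 6.23 for the others. None of 6 stellate and fibroblast markers (sums of 3969 to 4489 and 3166 to 4200) or of 4 cholangiocyte markers (749 to 779 and 765 to 827) was called, though 1 cholangiocyte marker was lower without SM replicate 2. In whole liver, more cells of a type and more RNA per cell cannot be told apart, and the part of these cell types in the differences of Derl3, Sdf2l1 and the other members was not tested.

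The other 5 degradation genes were not called at the gene level. Sel1l, the adaptor of the HRD1 ligase, read 10.60, 10.48 and 10.62 in SM and 10.46, 10.51 and 10.37 in NZB, with overlap, and differed by -0.12 (SE 0.068, adjusted p = 0.252). Syvn1, which encodes HRD1 itself, read 10.30, 10.17 and 10.49 in SM and 10.02, 10.42 and 10.21 in NZB, with overlap (-0.11, SE 0.11, adjusted p = 0.545). Edem1, a relative of Edem2, read 11.08, 10.99 and 10.63 in SM and 10.88, 10.82 and 10.77 in NZB, with overlap (-0.073, SE 0.11, adjusted p = 0.677). These genes had further probe sets that were called, unlike Derl2, a derlin gene that differed by 0.093 (SE 0.097, adjusted p = 0.542). Derl1, another derlin gene, read 10.28, 10.27 and 10.25 in SM and 10.33, 10.32 and 10.20 in NZB, with overlap (0.02, SE 0.062, adjusted p = 0.857).

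**Figure D2:**
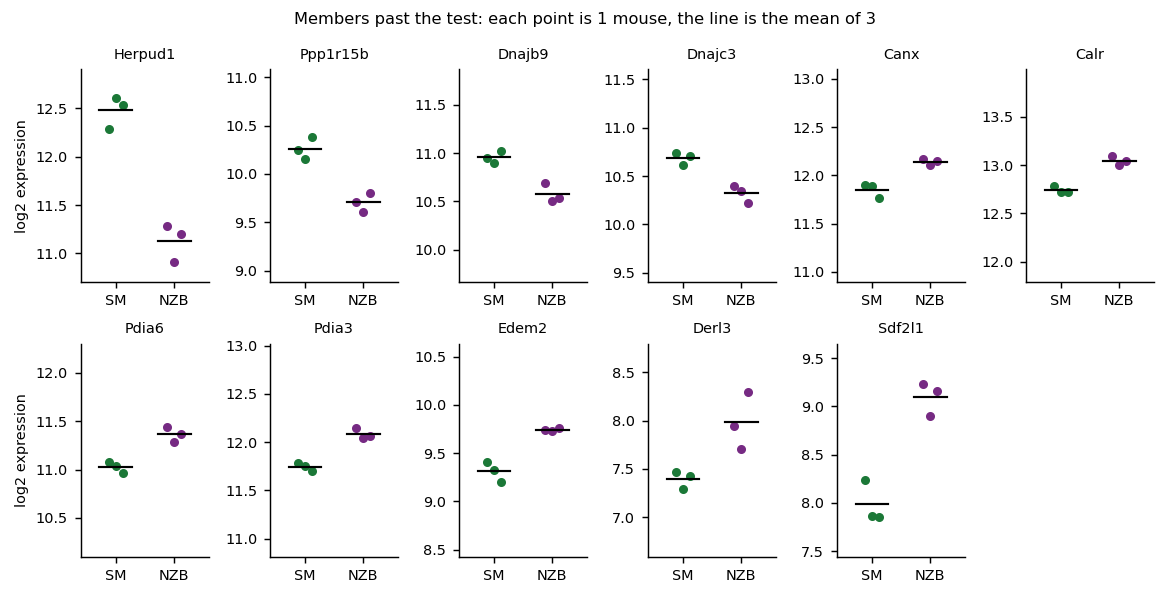
Log2 expression on each array (points, 1 mouse each) and the strain mean (lines, n = 3) for the 11 members called, from the most negative to the most positive difference. Every axis spans the same height, and in all 11 panels the arrays of the strains do not overlap.

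None of the 4 genes of the sensors and Xbp1 was called at the gene level. Ern1 read 10.87, 10.74 and 10.53 in SM and 10.89, 10.70 and 10.57 in NZB, a difference of 0.0096 (SE 0.10, adjusted p = 0.963). Atf6 read 9.23, 9.0 and 9.18 in SM and 9.08, 8.93 and 8.93 in NZB, a difference of -0.16 (SE 0.078, adjusted p = 0.190). Eif2ak3 read 8.54, 8.46 and 8.54 in SM and 8.55, 8.47 and 8.53 in NZB, a difference of 0.004 (SE 0.06, adjusted p = 0.972). At the gene level the strains overlapped for all 3 sensor genes, and none of their 11 probe sets was called. Some of these read under the background level: Ern1 1450176_at (at most 5.55), Ern1 1431886_at (at most 4.94) and Eif2ak3 1430371_x_at (at most 4.29). The strains did not overlap in 1450176_at (0.21, adjusted p = 0.150 over all probe sets).

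Xbp1 encodes the transcription factor that IRE1 activates by splicing, and its probe sets gave different answers. The probe set that represents the gene, 1437223_s_at, read 12.16, 12.27 and 12.16 in SM and 12.34, 12.42 and 12.23 in NZB, with overlap, and at the gene level differed by 0.13 (SE 0.071, adjusted p = 0.230). Probe set 1420886_a_at read 11.83, 11.93 and 11.88 in SM and 8.89, 8.90 and 8.64 in NZB. All its NZB arrays were below all its SM arrays, 8.39-fold lower (-3.07, SE 0.082, adjusted p = 1.37e-07 over all 45037 probe sets), the largest difference of the 79 probe sets of the members.

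The remaining Xbp1 probe sets, 1420011_s_at and 1420012_at, differed by 0.16 (SE 0.098, adjusted p = 0.314) and -0.024 (SE 0.10, adjusted p = 0.906). The call for Xbp1 therefore depended on how its probe sets were combined. With their mean it was lower in NZB (-0.70, adjusted p = 0.000695), and without probe sets marked x or s it was read from 1420886_a_at (-3.07, adjusted p = 1.03e-07). The difference of 1420886_a_at lay between -3.11 and -2.98 over 12 alternatives. Whether the strains' sequences differ under its probes was not tested, and these values do not separate spliced from unspliced mRNA.

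In the PERK branch, 1 of 7 genes was called. Ppp1r15b encodes CReP, the subunit that directs a phosphatase to eIF2 alpha in unstressed cells, and read 10.25, 10.15 and 10.38 in SM and 9.71, 9.61 and 9.80 in NZB. The strains did not overlap, and NZB was 1.47-fold lower (-0.55, SE 0.08, adjusted p = 0.00147). A further probe set differed by 0.12 (SE 0.11), and with the mean of both the call ended (-0.22, adjusted p = 0.104). Ppp1r15a, which encodes the stress-induced counterpart GADD34, read 8.37, 8.35 and 8.24 in SM and 8.39, 8.56 and 8.50 in NZB, without overlap. Its difference of 0.17 missed the threshold (SE 0.069, adjusted p = 0.121), but passed after quantile normalization (0.23, adjusted p = 0.0486).

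Atf4, the transcription factor at the centre of this branch, read 10.81, 10.74 and 10.61 in SM and 10.77, 10.84 and 10.79 in NZB, a difference of 0.083 (SE 0.069, adjusted p = 0.434). Ddit3, which encodes the factor CHOP that promotes cell death under lasting stress, read 8.10, 8.06 and 8.09 in SM and 7.94, 8.07 and 8.11 in NZB, a difference of -0.045 (SE 0.065, adjusted p = 0.673). Both genes overlapped between the strains. Asns, the asparagine synthetase, read 6.91, 6.80 and 6.93 in SM and 7.11, 7.10 and 7.02 in NZB. These arrays did not overlap, and the difference of 0.19 missed the threshold (SE 0.064, adjusted p = 0.0630). It passed with array weights (0.22, adjusted p = 0.0274) and with the mean of its probe sets (0.23, adjusted p = 0.0192). The pseudokinase gene Trib3 and the glutathione-degrading enzyme gene Chac1 differed by 0.19 (SE 0.12, adjusted p = 0.295) and -0.12 (SE 0.15, adjusted p = 0.613). On NZB replicate 3, Chac1 read 7.66, below the 8.12 to 8.30 of the other 5 arrays.

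Of the 34 members, 25 had several probe sets, up to 5 each. Among the 79 probe sets, 17 were higher in NZB (21.5%) and 12 were lower (15.2%), or 36.7% in all. Over all 45037 probe sets, 6.09% were higher, 8.69% were lower and 14.8% were called either way. These shares were not matched for brightness: 74 of the 79 had a mean above the background level of 5.67. At the gene level, the excess in the share called either way was gone above 8.04 (31.2% of members, 34.6% of all genes). By direction the shares there still differed, with 18.8% and 9.83% higher and 12.5% and 24.7% lower. No probe set share above that level was computed, so the probe set shares do not show that the members stand out. Without NZB replicate 3, 6 of the members' probe sets were lower, and without SM replicate 2, 12 were higher and 9 lower. All probe sets were called the same way for 3 of the 25 genes (Calr, Canx and Herpud1) and none was called for 10. For 11 genes some were called and some were not, and 1 gene had calls in both directions. The shares of all genes with several probe sets in these classes were not computed. The counts therefore do not show that the members are more discordant than other genes. If any called probe set counts, 11 members were higher and 8 were lower, with 1 gene in both counts. This rule favours genes with several probe sets, and the share of all genes under it was not computed. Without SM replicate 2, all probe sets were called the same way for 1 of the 25 genes, none was called for 13, some were for 10 and 1 gene had both directions, and by any probe set 9 members were higher and 6 lower.

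That gene was Dnajc3. Its probe set 1419162_s_at read 9.25, 9.33 and 9.18 in SM and 10, 9.76 and 9.98 in NZB. It did not overlap and was 1.58-fold higher in NZB (0.66, SE 0.081, adjusted p = 0.000961 over all probe sets). Probe sets 1433887_at, 1419163_s_at and 1449373_at were called lower, with differences of -0.36, -0.32 and -0.37. The fifth, 1449372_at, differed by 0.22 (SE 0.079, adjusted p = 0.0965) and was not called. With the mean over its 5 probe sets the difference was -0.033 (adjusted p = 0.709), so the direction for Dnajc3 depended on the probe set.

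Sel1l had 3 of 5 probe sets higher in NZB, with differences of 0.37, 0.46 and 0.51, while the one that represents the gene differed by -0.12. Its probe set 1425187_at read 9.56, 9.63 and 9.59 in SM and 9.99, 9.96 and 9.94 in NZB, without overlap. With the mean over its probe sets Sel1l was called higher (0.23, adjusted p = 0.0336). Derl1 had 2 of 4 probe sets called lower, with differences of -0.32 and -0.36. Syvn1 and Edem1 each had 1 of 2 probe sets called lower. For Syvn1 it read 10.05, 9.85 and 9.86 in SM and 9.63, 9.67 and 9.46 in NZB (-0.33, SE 0.084, adjusted p = 0.0298). For Edem1 it read 10.59, 10.40 and 10.36 in SM and 10.09, 10.18 and 9.97 in NZB (-0.37, SE 0.085, adjusted p = 0.0200), and neither overlapped between the strains. A further Asns probe set was called higher (0.27, SE 0.068, adjusted p = 0.0304), but it read at most 4.70, under the background level.

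**Figure D3:**
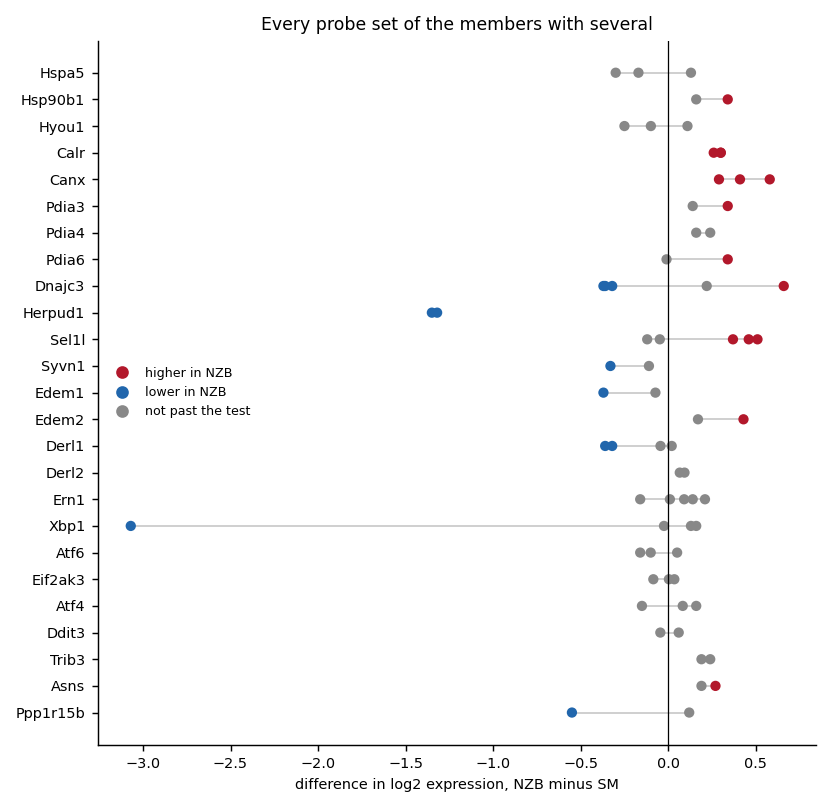
Difference in log2 expression (NZB minus SM) for every probe set of the 25 members with several, coloured by the test over all probe sets. The probe sets of Herpud1 lie together at -1.35 and -1.32, those of Dnajc3 spread from -0.37 to 0.66, and 1 of Xbp1 lies at -3.07.

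**Figure D4:**
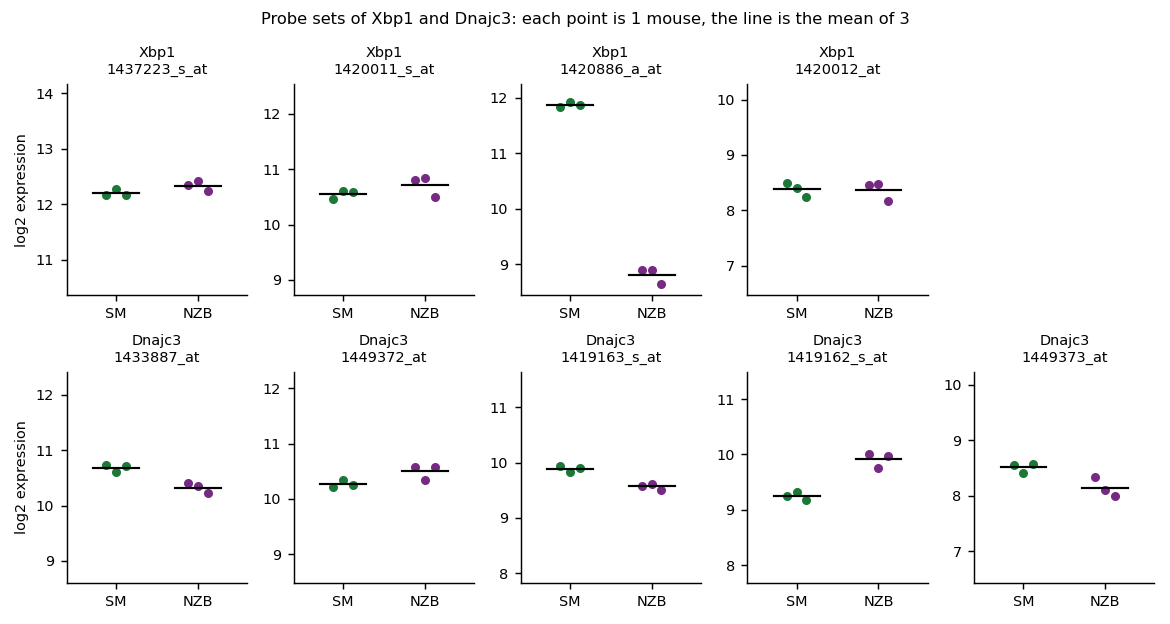
Log2 expression on each array (points, 1 mouse each) and strain means (lines, n = 3) for the 4 probe sets of Xbp1 and the 5 of Dnajc3, with all axes spanning the same height. Among those of Xbp1 the strains are apart in 1420886_a_at alone, and Dnajc3 probe set 1419162_s_at is higher in NZB where 3 others are lower.

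Mice of the same strain varied more in some members than in others. The pooled SD within strains had a median of 0.0823 over the members and 0.0880 over all genes. Manf had the widest spread, 0.418, at the 99.5th percentile of all genes, followed by Creld2 at 0.258 and Chac1 at 0.257. Hspa5, at 0.197, was at the 94.8th percentile. For Manf, Creld2 and Hspa5, SM replicate 1 was the highest SM array and NZB replicate 2 the highest NZB array. Calr and P4hb had the narrowest spreads, 0.0387 and 0.0280. SM replicate 1 was the highest SM array for 25 of the 34 members, whereas NZB replicates 1, 2 and 3 were the highest for 17, 13 and 4. These counts were not made over all genes, so they are not shown to be particular to the members.

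Other genes of the secretory pathway and its stress response were read from 6 lists, with 119 genes measured of 126 listed. Of these, 14 were higher in NZB and 21 were lower. The share called was 29.4%, between the 21.0% of all genes and the 34.6% of those above 8.04. Without NZB replicate 3, 10 were higher and 12 were lower, and without SM replicate 2, 11 and 15. Counts of single lists are given again where array scaling or leaving out SM replicate 2 moved them by more than 1.5 times.

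The translocon and signal peptide processing bring new proteins into the ER. Of 16 genes measured, 2 were higher and none lower, with a median of 0.10: Ssr4, a subunit of the translocon-associated complex (0.54, SE 0.08, adjusted p = 0.00161), and Tram1 (0.35, SE 0.066, adjusted p = 0.00588). After quantile normalization 5 were higher, with a median of 0.14. Among 12 genes of N-glycan transfer and trimming, 2 were higher and 1 was lower, with a median of 0.15. Uggt1, the glucosyltransferase that returns unfolded glycoproteins to calnexin and calreticulin, was higher (0.41, SE 0.063, adjusted p = 0.00209), as was the oligosaccharyltransferase subunit gene Rpn1 (0.40, SE 0.067, adjusted p = 0.00308). Stt3b, a catalytic subunit of that enzyme, was lower (-0.23, SE 0.064, adjusted p = 0.0287), but none was lower after quantile normalization or without SM replicate 2.

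Of 23 other folding enzymes and co-chaperones, 7 were higher and 5 were lower, with a median of 0.056. The largest differences upwards were those of Sil1, a nucleotide exchange factor of BiP (0.70, SE 0.067, adjusted p = 0.000148), the peroxidase gene Prdx4 (0.55, SE 0.079, adjusted p = 0.00147) and Erp29 (0.40, SE 0.082, adjusted p = 0.00886). The largest downwards were those of Dnajc10, which encodes the disulfide reductase ERdj5 (-0.57, SE 0.074, adjusted p = 0.000845), Txndc11 (-0.34, SE 0.097, adjusted p = 0.0344) and Tmx1 (-0.34, SE 0.073, adjusted p = 0.0106). After quantile normalization 7 were higher and 3 lower, with a median of 0.11, and without SM replicate 2, 5 and 3.

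Of 20 other degradation genes, 7 were lower (35.0%) and none was higher, with a median of -0.094. Among all genes above 8.04, 24.7% were lower and the median was -0.080. Ufd1, a cofactor of the extraction ATPase p97, differed by -0.58 (SE 0.068, adjusted p = 0.000472), the lectin gene Erlec1 by -0.45 (SE 0.063, adjusted p = 0.00122) and Edem3, a relative of Edem2, by -0.41 (SE 0.078, adjusted p = 0.00618). After quantile normalization 5 were lower and none higher, with a median of -0.028, and without SM replicate 2, 4 were lower.

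Of 18 other sensors, bZIP factors, their partners and proteases, 3 were lower and none was higher, with a median of -0.081. They were Creb3, which encodes an ER-bound bZIP factor (-0.46, SE 0.10, adjusted p = 0.0113), Yy1 (-0.27, SE 0.08, adjusted p = 0.0376) and the NF-Y subunit gene Nfyc (-0.25, SE 0.06, adjusted p = 0.0183). After quantile normalization 1 was lower. Of 30 other eIF2 alpha kinases and ATF4 targets, 5 were lower and 3 were higher, with a median of -0.030. Cebpb, a bZIP factor that can pair with ATF4, differed by -1.34 (SE 0.13, adjusted p = 0.000144), the serine synthesis gene Psph by -0.97 (SE 0.13, adjusted p = 0.000980) and the serine hydroxymethyltransferase gene Shmt2 by -0.50 (SE 0.082, adjusted p = 0.00284). The higher ones were the amino acid transporter gene Slc7a5 (0.51, SE 0.056, adjusted p = 0.000355), the cysteinyl-tRNA synthetase gene Cars (0.26, SE 0.072, adjusted p = 0.0298) and Atf3 (0.26, SE 0.071, adjusted p = 0.0293). With array medians aligned, 1 of this list was higher, and without SM replicate 2, 2 were.

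**Figure D5:**
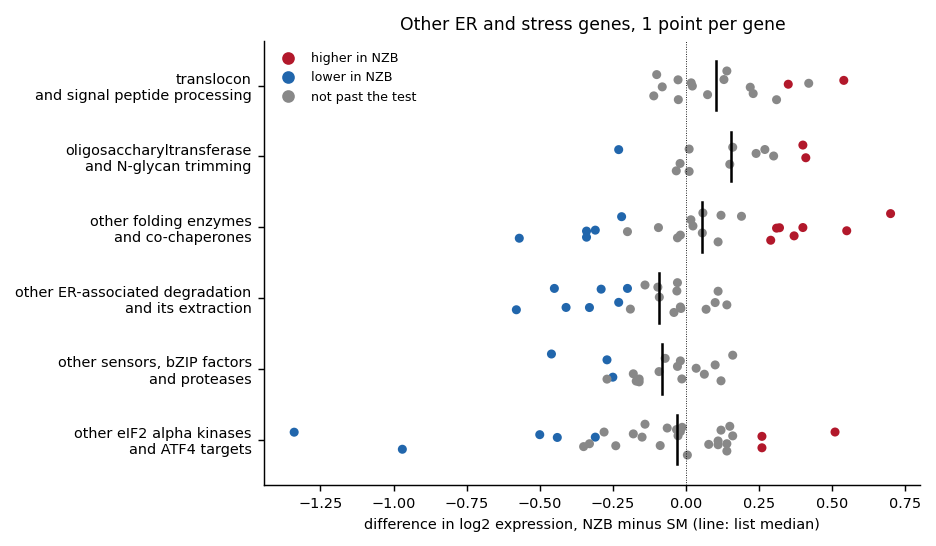
Difference in log2 expression (NZB minus SM) of the 119 other secretory pathway and stress genes measured, 1 point per gene, by list, with the list median as a line. Called genes of the degradation list all lie left of 0 (also with either rescaling of the arrays), and Cebpb lies farthest left at -1.34.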

How the data were processed

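The table deposited by the authors holds 1 value per probe set and mouse. Per the submitters' processing notes, RMA was used, which corrects background, normalizes arrays and summarizes probes; no version or setting was given in the sources used here. Deposited values were taken as log2, since their maximum of 14.9 fits a 16-bit scanner on that scale and not on the natural log scale, whose ceiling is 11.1. Background and saturation can shrink differences. Probe sequences and strain variants were not used here.

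Platform symbols were updated by Entrez ID through RefSeq (GRCm38.p6): 34945 probe sets had 1 gene (34741 matched), 932 several and 9160 none. NZB and SM were compared, two-sided, by limma 3.58.1 (R 4.3.3, lmFit and eBayes) adjusted by Benjamini-Hochberg across all genes and, separately, all probe sets. The script was tested on simulated data. An exact test of 3 against 3 cannot go below p = 0.1. Members and lists were chosen with earlier results of these data known. Every member is named. Arrays are given for members called, for sensors and main factors, and for members with discordant probe sets. Manf, Creld2 and Ppp1r15a, and the probe sets printed, were added after their values were seen, as was the level of 8.04. Of each related list, up to 3 genes per direction are named. Alternatives left out each array, changed normalization, variances, weights, dim filter or probe set choice, or added a replicate block.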

Additional observations from a re-analysis of the deposited data

How the results depend on the processing

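Of the 11 members called, 7 kept their call and direction under every gene-level alternative run (Calr, Canx, Pdia3, Dnajb9, Sdf2l1, Herpud1 and Edem2), and the report gives the alternatives that ended the call of Pdia6, Dnajc3, Derl3 and Ppp1r15b. Leaving out single arrays gave 6 to 7 higher and 4 to 5 lower members. If any called probe set counts, 11 were higher and 8 lower, without a share of all genes under that rule to set beside them. The largest probe set difference opposed the gene-level direction for 7 members: it was called for Dnajc3 (0.66), Sel1l (0.51), Derl1 (-0.36) and Xbp1 (-3.07), and not called for Hyou1 (-0.25), Eif2ak3 (-0.085) and Ddit3 (0.06). With the mean of probe sets Sel1l turned to 0.23 and Xbp1 to -0.70, and without probe sets marked x or s Xbp1 turned to -3.07. The members' median was 0.014 to 0.099 without single arrays, 0.097 after quantile normalization and -0.011 with array medians aligned. Lower probe sets numbered 6 to 12 without single arrays and 7 after quantile normalization, and lower related genes 12 to 18 without single arrays. The cause was not tested. For 10 members the sign turned in at least 1 of the other gene-level alternatives without a call before or after. A filter that kept genes above 8.04 and all alternatives for probe set counts and marker lists were added after seeing the data, and that filter gave no value for Derl3 and Asns.

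With the replicate block, 7 members were higher and 4 lower, 17 and 12 of their probe sets, and 15 and 18 related genes, and no member's call changed. Deviations of same-numbered mice from their strain means correlated at 0.0396, -0.0722 and 0.0496, and those of differently numbered mice at -0.106 to 0.0847. With 3 mice per strain, these values cannot tell whether the numbers pair mice.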
